A study of Homo sapiens with 6 samples.

Results

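The genes described here are 6 ligands of the epidermal growth factor (EGF) receptor (AREG, EREG, HBEGF, TGFA, BTC and EPGN), 3 receptors of its family (EGFR, ERBB2 and ERBB3) and ADAM17, the protease that releases most of these ligands. They were chosen by gene symbol, with earlier results of the same comparison known. All 10 were found among the 61806 genes of the deposited table, each in 1 row, and all 10 passed the filter on low counts. EPGN passed it through its si-NC libraries (19 to 32 counts), as its si-STRIP2 libraries had 5 to 13. The cells were HCT116, an established human colorectal carcinoma line grown in McCoy's 5A medium with serum. Of the 6 libraries, 3 are labelled si-NC with a wildtype genotype and serve as controls, and 3 are labelled si-STRIP2 with a knockdown of STRIP2, a component of STRIPAK, a complex built around the phosphatase PP2A. All cells were of this 1 line. The labels give neither the sequence of the small interfering RNAs nor the time of harvest. They leave unsaid whether replicates were separate cultures, so p-values measure only the spread between these libraries, which may be technical.

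EGF family ligands are made as precursors anchored in the plasma membrane. ADAM17 cuts off the extracellular part, and the freed ligand binds a receptor on the same or a neighbouring cell, which pairs with a second receptor, is phosphorylated and signals through RAS and ERK and through PI3 kinase. In colorectal cancer AREG and EREG are widely studied ligands, whose levels have been examined in relation to the response to antibodies against EGFR.

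Each library held 17184963 to 21721218 counts. STRIP2 itself had 3.19, 3.77 and 3.81 FPKM (the count divided by exonic length and by the library total) in si-NC and 2.71, 2.53 and 2.58 in si-STRIP2. Its groups did not overlap, and 72.8% of the control level remained, so the knockdown was partial at the RNA level. Its log2 fold change was -0.46 (standard error 0.083), and 2084 tested genes had a lower one, all of the ligands and ADAM17 among them. In these libraries, effects of less STRIP2 and other effects of the small interfering RNA cannot be told apart. The epithelial markers EPCAM, KRT8, KRT18 and KRT19 were at 122 FPKM or more in every library and CDX2 at 2.20 or more. By edgeR 3 epithelial markers were called lower in si-STRIP2, CDH1 (log2 fold change -0.60), KRT18 (-0.18) and EPCAM (-0.11), and 2 higher, CDX2 (0.38) and KRT19 (0.22). KRT8 and KRT18 overlap, and KRT8 held 156% as many counts as KRT18. VIL1 and CEACAM5 had at most 3 counts and were not tested. For comparison, 27.0% of all tested genes were called lower and 27.8% higher. Of 8 markers of other cell types, COL1A1 had 1.89 to 2.55 FPKM and the others at most 0.42. The sum of the 8 epithelial markers was 691 to 721 FPKM in si-NC and 667 to 691 in si-STRIP2, and the part of these differences in the results was not tested.

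The 6 ligand genes were all lower in si-STRIP2 cells, by 2.28-fold to 2.91-fold, while the 3 receptor genes differed by 1.11-fold or less and ADAM17 was 1.58-fold lower. In edgeR's quasi-likelihood test over all 15687 tested genes, 8 of the 10 members were called at a Benjamini-Hochberg adjusted p under 0.05, all of them lower. EPGN, which passed the count filter through its si-NC libraries, is among these 8. Over all tested genes 54.8% were called, 27.0% lower and 27.8% higher, and 2.91% were called and at least 2-fold lower. The FPKM of the groups did not overlap for all 10 members and for 58.6% of tested genes. Since this comparison was in view when the genes were chosen, these counts are a description and the members' fold changes are given with their standard errors and without a p-value. In RNA from whole cultures, fewer cells that express a gene and less RNA per cell cannot be told apart.

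**Figure D1:**
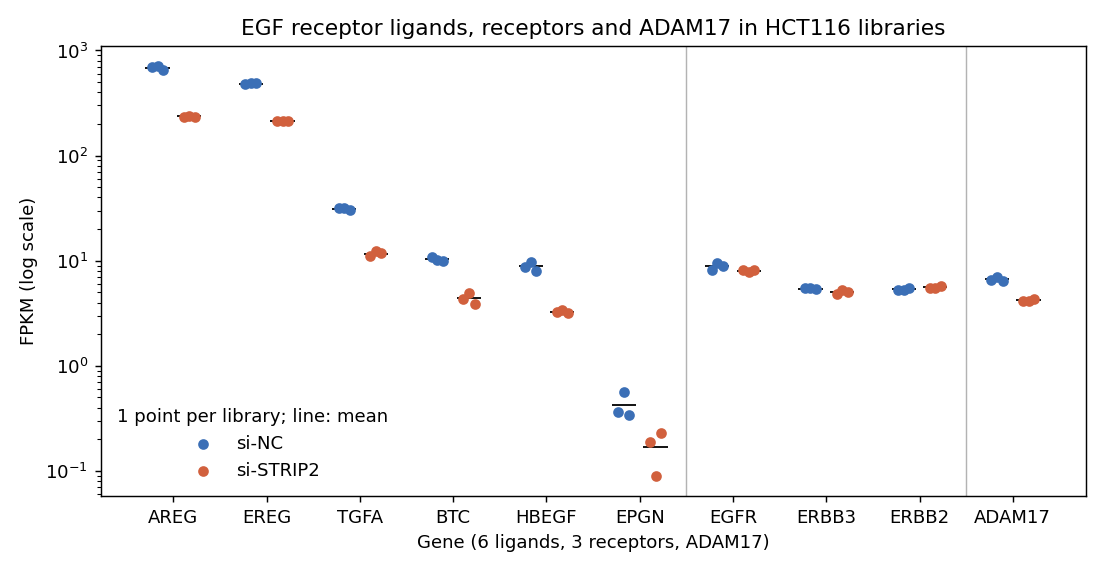
FPKM of the 10 genes in each of the 6 libraries, on a log scale, with the mean of each group as a line. AREG and EREG stand far above the rest in both groups. The 6 ligands sit lower in si-STRIP2, and the 3 receptors lie close together in both groups.

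The promoters of the ligands are shown because the 6 genes moved together and 4 of them are neighbours on chromosome 4. A RefSeq window of 250 bases before to 50 after the gene start (GRCh38.p14) was matched for 9 of the 10 members, all but ERBB3. The 100 bases before the start are printed 5′ to 3′ on the strand of the gene, with matches to TATAA (the TATA box) and TGACGTCA (the cAMP response element, where CREB and ATF proteins bind) in capitals.
AREG: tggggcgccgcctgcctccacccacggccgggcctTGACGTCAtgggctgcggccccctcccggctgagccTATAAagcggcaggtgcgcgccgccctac
EREG: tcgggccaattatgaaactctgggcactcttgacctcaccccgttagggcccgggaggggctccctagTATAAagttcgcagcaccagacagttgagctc
EPGN: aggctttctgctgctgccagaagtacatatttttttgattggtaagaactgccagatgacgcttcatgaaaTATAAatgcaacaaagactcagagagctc
BTC: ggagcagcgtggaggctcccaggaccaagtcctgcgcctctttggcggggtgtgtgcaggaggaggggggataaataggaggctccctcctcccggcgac
TGFA: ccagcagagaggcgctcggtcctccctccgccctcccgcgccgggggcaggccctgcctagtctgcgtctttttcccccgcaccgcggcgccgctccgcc
HBEGF: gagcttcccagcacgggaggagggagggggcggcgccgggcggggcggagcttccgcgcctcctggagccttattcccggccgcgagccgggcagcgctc

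These stretches lie at chr4:74445036-74445135 (plus strand) for AREG, chr4:74365045-74365144 (plus) for EREG, chr4:74308370-74308469 (plus) for EPGN and chr4:74794524-74794623 (minus) for BTC. Those of TGFA and HBEGF lie at chr2:70553827-70553926 (minus) and chr5:140346604-140346703 (minus), where the window of TGFA is the first of 2. The stretch of TGFA lies before its RefSeq start but inside the gene as deposited, which extends to 70554193. Counted from the start, TATAA began at base -29 in AREG, -32 in EREG and -29 in EPGN. It began between -40 and -20 on the forward strand in 3.91% of the 35116 windows of the table. TGACGTCA reads the same on both strands, began at base -65 in AREG and was in 1.85% of all windows. TGANTCA, the site of AP-1 (JUN and FOS dimers), reads the same on both strands too. It was in 7.71% of all windows and in none of the windows of the 6 ligands. Among the other members it began at -232 and -136 in the second window of EGFR and at -222 in the window of ERBB2. Sites outside these windows were not searched. The GC box GGGCGG, searched on both strands, had 5 matches in the window of HBEGF, 4 in that of TGFA and 1 each in those of AREG and BTC, and was in 45.0% of all windows. No match overlapped a match to another of these motifs in AREG. TATAA also began at -36 in the second of the 2 windows of EGFR. None of these motifs was in the windows of all 6 ligands.

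Amphiregulin and epiregulin, the products of AREG and EREG, are low-affinity ligands that bind EGFR, and epiregulin also binds ERBB4. AREG (ENSG00000109321, chromosome 4, 74445136 to 74455005, plus strand, GRCh38.p13 per the submitters' processing notes) had 699, 706 and 655 FPKM in si-NC and 235, 240.1 and 234 in si-STRIP2. The counts behind these values were 18483 to 24945 per library in si-NC and 6607 to 7239 in si-STRIP2. Every si-STRIP2 library lay far below every control. The mean was 687 ± 27.6 against 236 ± 3.44 FPKM (SD, n = 3 each), a log2 fold change of -1.54 (standard error 0.044), so that 34.3% of the control level remained.

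EREG (ENSG00000124882, chromosome 4, 74365145 to 74388749, plus strand) had 475, 493 and 488 FPKM in si-NC and 214, 214 and 213 in si-STRIP2. The si-STRIP2 libraries were within 1 FPKM of each other, and the groups were far apart. The means were 485 ± 9.33 and 214 ± 0.482 FPKM (SD, n = 3), a log2 fold change of -1.19 (standard error 0.046), with 43.9% of the control level left. EREG had more counts than AREG in every library (47871 to 58939 in si-NC), but its exonic length of 5713 bases against 1642 put it lower per length.

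In si-NC the mean FPKM of AREG was the 30th highest of the tested genes and that of EREG the 40th highest. In si-STRIP2 they were 102nd and 120th. The ratio of AREG to EREG within a library was 1.47, 1.43 and 1.34 in si-NC and 1.10, 1.12 and 1.10 in si-STRIP2. AREG was thus the lower of the pair relative to its control in each si-STRIP2 library, and this ratio does not depend on how libraries are scaled. Together they made up 95.8% ± 0.0807 of the summed FPKM of the 6 ligands in si-NC and 95.8% ± 0.185 after knockdown (SD, n = 3). That sum was 1220.0 ± 30.2 FPKM in si-NC and 469 ± 4.81 in si-STRIP2.

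Transforming growth factor alpha (TGFA) and heparin-binding EGF-like growth factor (HBEGF) are high-affinity ligands of EGFR, and the latter binds ERBB4 as well. TGFA (ENSG00000163235, chromosome 2, 70447284 to 70554193, minus strand) had 31.8, 32.0 and 30.4 FPKM in si-NC and 11.0, 12.3 and 11.7 in si-STRIP2. These groups did not overlap. The log2 fold change was -1.43 (standard error 0.046), a level of 37.2% of the control.

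HBEGF (ENSG00000113070, chromosome 5, 140332843 to 140346603, minus strand) had 8.79, 9.76 and 7.92 FPKM in si-NC and 3.24, 3.37 and 3.20 in si-STRIP2. The control libraries varied more than the si-STRIP2 libraries, and the groups did not overlap. The means were 8.82 ± 0.92 and 3.27 ± 0.0889 FPKM (SD, n = 3), a log2 fold change of -1.43 (standard error 0.087).

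Betacellulin (BTC), which binds EGFR and ERBB4, and epigen (EPGN), a low-affinity EGFR ligand, complete the family of ligands studied here. BTC (ENSG00000174808, chromosome 4, 74744759 to 74794523, minus strand) had 11.0, 10.2 and 9.96 FPKM in si-NC and 4.36, 4.96 and 3.90 in si-STRIP2. The groups were apart, with a log2 fold change of -1.24 (standard error 0.085). EPGN (ENSG00000182585, chromosome 4, 74308470 to 74316789, plus strand) was close to the limit of detection, with 26, 32 and 19 counts in si-NC and 12, 5 and 13 in si-STRIP2. Its log2 fold change of -1.29 had a standard error of 0.34, the largest of the 10 members.

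Among the 3 receptors, EGFR is the receptor for all 6 ligands, ERBB3 binds neuregulins and has little kinase activity, and ERBB2 binds no known ligand and serves as a partner. EGFR (ENSG00000146648, chromosome 7, 55019017 to 55211628, plus strand) had 8.18, 9.44 and 8.92 FPKM in si-NC and 8.08, 7.78 and 8.12 in si-STRIP2. The lowest control lay just above the highest si-STRIP2 library. The log2 fold change was -0.15 (standard error 0.044), and 90.3% of the control level remained. EGFR was called by edgeR, and the call ended without si-NC replicate 2, the highest of its control libraries, where the log2 fold change was -0.11.

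ERBB3 (ENSG00000065361, chromosome 12, 56076799 to 56103505, plus strand) had 5.49, 5.45 and 5.36 FPKM in si-NC and 4.84, 5.31 and 5.07 in si-STRIP2. Its log2 fold change was -0.10 (standard error 0.049), and it did not pass the test, but it did without si-STRIP2 replicate 2. ERBB2 (ENSG00000141736, chromosome 17, 39687914 to 39730426, plus strand) had 5.32, 5.30 and 5.46 FPKM in si-NC and 5.47, 5.55 and 5.76 in si-STRIP2. It was the only member above its control, by 0.0576 on the log2 scale (standard error 0.049), and did not pass the test. Genes that overlap ERBB2, MIEN1 foremost, held 60.2% as many counts. Whether reads were assigned by strand is not given in the sources used here.

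ADAM17 (ENSG00000151694, chromosome 2, 9488486 to 9556732, minus strand), also known as TACE, had 6.52, 6.97 and 6.44 FPKM in si-NC and 4.13, 4.16 and 4.34 in si-STRIP2. The groups were far apart, with means of 6.64 ± 0.286 and 4.21 ± 0.114 FPKM (SD, n = 3). Its log2 fold change was -0.66 (standard error 0.045), so that its level was 63.2% of the control. Genes overlapping ADAM17, mainly IAH1, held 18.6% as many counts.

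**Figure D2:**
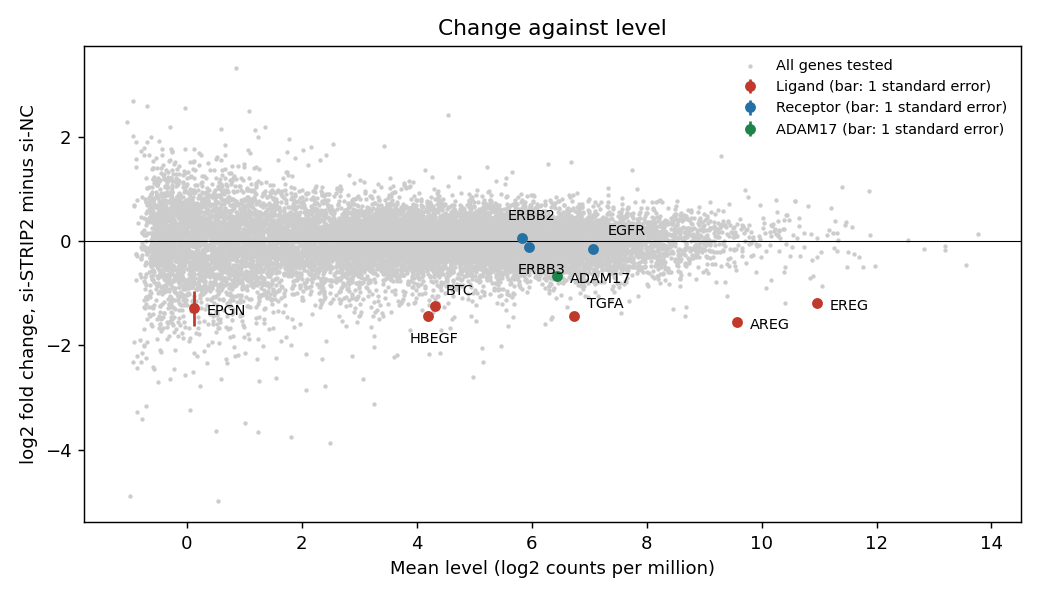
Log2 fold change of each tested gene (si-STRIP2 minus si-NC) against its mean level in log2 CPM (counts scaled to the library total), with the 10 members in colour and bars of 1 standard error. The 6 ligands lie between -1.54 and -1.19 over a wide range of levels, the 3 receptors lie near 0 and ADAM17 lies between them.

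The order of the levels changed with the fall of the ligands. In si-NC the order of mean FPKM was AREG, EREG, TGFA, BTC, EGFR, HBEGF, ADAM17, ERBB3, ERBB2 and EPGN, and the ranges of EGFR and HBEGF and of ERBB3 and ERBB2 overlapped. In si-STRIP2 it was AREG, EREG, TGFA, EGFR, ERBB2, ERBB3, BTC, ADAM17, HBEGF and EPGN. There the ranges of ERBB3 and BTC and of BTC and ADAM17 overlapped. The summed FPKM of the 6 ligands was 139 ± 9.75 times that of EGFR in controls and 58.7 ± 1.99 times after knockdown (SD, n = 3). These ratios use exonic lengths that count all annotated exons, 15941 bases for EGFR, and a level per length is lowered where part of that length is not transcribed in these cells.

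By position, EPGN, EREG, AREG and BTC lie in that order within 486 kb of chromosome 4, and the starts of EREG and AREG are 80.0 kb apart. Of the 47 genes within 1 Mb of the AREG start, 26 were at 0 counts in all libraries and 14 were tested, the 4 ligands among them. Of the 10 other tested genes, 8 were called lower and 0 higher by edgeR, and 6 of these 8 were at least 2-fold lower, where 27.0% and 2.91% of all tested genes were. Neighbouring genes are not independent, and these were not compared with other stretches of the genome.

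Chemokine genes, whose products attract neutrophils, lie on 1 side of the ligands. CXCL8 went from 3.43 ± 0.276 to 0.50 ± 0.0954 FPKM (SD, n = 3), a log2 fold change of -2.78 (edgeR adjusted p = 1.28e-15), or -1.56 on the log2(FPKM + 1) scale. CXCL2 (4.01-fold lower, edgeR adjusted p = 7.49e-09), CXCL1 (3.69-fold, 3.99e-08) and CXCL3 (2.18-fold, 0.00134) were lower too, at 12 to 74 counts per library, and as near-identical copies they may share reads. RASSF6, a RAS association domain gene, had a log2 fold change of -1.12 (edgeR adjusted p = 3.06e-10). On the other side of the ligands PARM1, a mucin-like gene, had -0.80 (edgeR adjusted p = 7.43e-15).

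The neighbourhood was not lower as a whole. MTHFD2L, a mitochondrial folate enzyme gene that ends next to EPGN, had 312 to 381 counts in si-NC and 309 to 368 in si-STRIP2, with a log2 fold change of 0.00304 (standard error 0.079, edgeR adjusted p = 0.977). LINC02562, at 10 to 19 counts, had 0.19 (edgeR adjusted p = 0.651). The unnamed genes ENSG00000269559 (-1.22, edgeR adjusted p = 0.000249) and ENSG00000249942 (-0.70, edgeR adjusted p = 0.00719) were lower, at 14 to 59 counts, and the call of ENSG00000249942 ended without si-STRIP2 replicate 3 (-0.54, edgeR adjusted p = 0.0598). The first lies within MTHFD2L, which held 1390.0% as many counts.

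**Figure D3:**
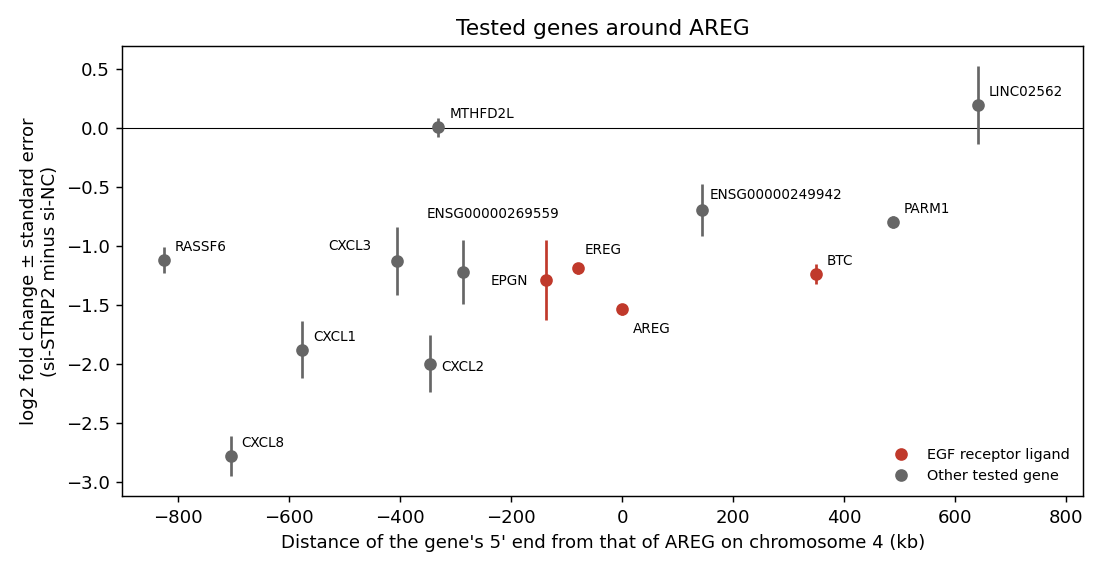
Log2 fold change with its standard error for the 14 tested genes within 1 Mb of AREG, by the distance of their 5′ end from that of AREG in kb, with the 4 ligands in red. MTHFD2L and LINC02562 are at or above 0, and the other genes lie between -2.78 and -0.70.

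The remaining genes of the family were near silent. EGF, NRG1, NRG3 and ERBB4 had at most 13 counts in any library and were not tested. NRG2 (log2 fold change 0.14, standard error 0.36) and NRG4 (-0.46, standard error 0.27) did not pass the test. Without si-STRIP2 replicate 1 NRG4 had -0.98 and was called (edgeR adjusted p = 0.00661), and without si-STRIP2 replicate 2 it had -0.16. Genes overlapping NRG4 held 3080.0% as many counts.

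Of 10 other genes of ligand shedding, a list that like the next ones was chosen with these data known, 8 were tested, 3 were called lower and 1 higher. Their median log2 fold change was -0.0923, against 0.014 for all tested genes, of which 27.0% were called lower and 27.8% higher. TIMP3, the tissue inhibitor that blocks ADAM17, went from 1.43 ± 0.121 to 0.323 ± 0.0586 FPKM (SD, n = 3), a log2 fold change of -2.16 (edgeR adjusted p = 1.86e-12), or -0.88 on the log2(FPKM + 1) scale. The related proteases ADAM9 and ADAM10, the main sheddase of EGF and BTC, had log2 fold changes of -0.65 (edgeR adjusted p = 1.87e-15) and -0.37 (edgeR adjusted p = 4.34e-09). RHBDF2, which encodes the iRhom2 protein that carries ADAM17 to the cell surface, was the one called higher, at 0.28 (edgeR adjusted p = 0.00493), a call that ended without si-NC replicate 2 (0.20, edgeR adjusted p = 0.0568).

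Of 13 genes that restrain the receptors, 8 were called lower and 2 higher, with a median of -0.18. These counts stand beside 27.0% lower and 27.8% higher over all tested genes. ERRFI1 encodes MIG6, a feedback inhibitor that binds the EGFR kinase domain and is itself induced by receptor signalling. It was abundant, at 450.0 ± 16.5 FPKM in controls and 198 ± 1.33 after knockdown (SD, n = 3), and its log2 fold change was -1.18 (standard error 0.045, edgeR adjusted p = 5.73e-21). CBL, a ubiquitin ligase that marks EGFR for breakdown, had -0.56 (edgeR adjusted p = 1.02e-12), where overlapping genes held 18.3% as many counts. LRIG1, a transmembrane inhibitor, had -0.73 (edgeR adjusted p = 0.00015), but at 88 to 110 counts in si-NC beside overlapping genes with 476% as many. LRIG2 (0.53, edgeR adjusted p = 2.64e-07) and CBLB (0.41, edgeR adjusted p = 8.63e-05) were higher.

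Of 25 adaptors and kinases that carry the signal, 10 were called lower, 5 higher and 10 did not pass, a share called near the 54.8% of all tested genes. Their median log2 fold change was -0.0401. The docking protein gene GAB2 (-0.84, edgeR adjusted p = 6.92e-07), the RAS exchange factor gene SOS2 (-0.61, 1.33e-11) and the PI3 kinase gene PIK3CA (-0.47, 1.73e-08) were among the lower. The higher ones included PLCG1 (0.48, edgeR adjusted p = 8.91e-09), AKT2 (0.27), HRAS (0.21) and SOS1 (0.14). The calls of HRAS and SOS1 ended when single libraries were left out, 3 different ones in turn for each. Genes overlapping PLCG1 held 48.4% as many counts. Of 10 trafficking genes, which take the receptor into the cell and sort it, 5 were lower and 4 higher. The shares over all tested genes were 27.0% and 27.8%. The median of the 10 was -0.0234. The lower ones included STAM2 (-0.47, edgeR adjusted p = 8.71e-10), EPS15 (-0.34, 1.42e-08) and USP8 (-0.30, 1.71e-07), and the higher ones were EPN1, DAB2, RAB7A and AP2M1, at 0.0956 to 0.23. The call of AP2M1 (edgeR adjusted p = 0.0476) was lost under 12 of 14 alternatives, that of EPN1 under 3 and that of DAB2 under 7, among them leaving out si-NC replicate 1 or si-STRIP2 replicate 1 or 3.

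Of 14 genes known to respond to ERK, 8 were called lower and 3 higher, with a median of -0.17. Among all tested genes 27.0% were called lower and 27.8% higher. EGR1, an early response transcription factor gene, went from 38.0 ± 2.42 to 13.9 ± 0.262 FPKM (SD, n = 3), a log2 fold change of -1.45 (edgeR adjusted p = 2.38e-22). PHLDA1 had -0.89 (edgeR adjusted p = 4.14e-18) and IER3 -0.67 (edgeR adjusted p = 4.18e-16). The ERK phosphatase genes did not move together, as DUSP4 had -0.41 and DUSP6 -0.35 but DUSP5 0.31. The other higher genes were FOSL1 (0.41), which encodes a partner of JUN in AP-1, and ETV4 (0.19), an ETS factor gene. Genes overlapping ETV4 held 163% as many counts. The edgeR adjusted p was at most 0.00287 for these genes.

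The deposited annotation places 129 genes under the term ErbB signaling pathway, a list looked up after the values were seen. Of its 84 tested genes, 34 were called lower and 20 higher, or 64.3% against 54.8% of all tested genes. The 84 include 7 of the members, chosen with this comparison known, so this share partly restates them. The median of the 84 genes was -0.10. At least 2-fold lower were 7 of them, namely AREG, EREG, TGFA, HBEGF, BTC, the adaptor gene SHC2 and JUN, which encodes a subunit of AP-1. SHC2 had -1.75 with a standard error of 0.38, so its change was measured less precisely than that of JUN (-2.60, standard error 0.082). Of these 7, 5 are members, and 2.91% of all tested genes were called and at least 2-fold lower.

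**Figure D4:**
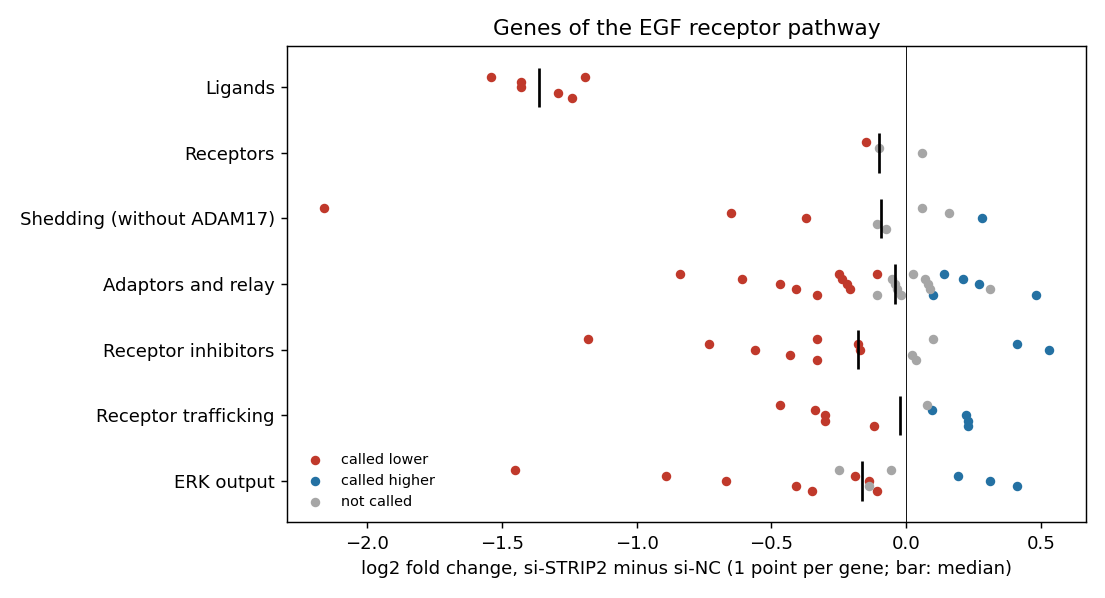
Log2 fold change of the tested genes of each list, 1 point per gene, with the median as a bar and the edgeR call as colour. The 6 ligands lie from -1.54 to -1.19, a range that EGR1 and TIMP3 of other lists reach or pass. The other lists have medians between -0.18 and -0.0234 and members on both sides of 0.

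For each ligand, the 3 genes whose profile over the 6 libraries was nearest were found among 11298 genes with a symbol and a mean of at least 1 FPKM. The measure was the root mean square distance of centred log2 CPM, on which a distance of 0 means the same profile, and it is set mostly by the difference between the groups. Nearest to EREG was ERRFI1, at a distance of 0.0284, followed by PTPDC1, a phosphatase gene, at 0.029 and YIPF1 at 0.0352. Nearest to AREG were CCPG1, an endoplasmic reticulum autophagy receptor gene, at 0.0486, the long noncoding RNA UCA1 at 0.049 and ATP2C2, a Golgi calcium pump gene, at 0.0535. Genes overlapping CCPG1 held 75.0% as many counts.

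Nearest to HBEGF was TGFA, at 0.0752, then the autophagy gene MAP1LC3B at 0.079 and PDE2A, a phosphodiesterase gene, at 0.0793. TGFA itself was nearest to CCPG1 at 0.0397, with OR2A20P at 0.0644 and the actin-binding gene NEBL at 0.0676. OR2A20P is a pseudogene beside genes with 131% of its counts, so its value is uncertain. BTC was nearest to the noncoding LINC00963 at 0.0616, to TMEM125 at 0.069, whose counts were far below those of the overlapping EBNA1BP2, and to NEBL at 0.0729. For EPGN, at its low counts, the smallest distance was 0.306, to ABCA12, before TLCD2 at 0.307 and the pseudogene PTP4A2P1 at 0.311.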

How the data were processed

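RNA-seq was measured in 3 si-NC and 3 si-STRIP2 libraries of HCT116 cells, made from poly(A) RNA with a directional kit. The authors deposited 1 table with a raw count and an FPKM value per gene and library, per the file headers. The submitters' processing notes name cutadapt 1.9.1, HISAT2 2.2.1, HTSeq 0.6.1 and the build GRCh38.p13. The annotation release and the use of strand are not given in the sources used here. The deposited FPKM equalled count divided by exonic length and library total to within 0.005.

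Counts were tested with edgeR 4.0.16 in R 4.3.3: filterByExpr (minimum count 10, 15687 genes, 99.8% of counts), TMM scaling, a quasi-likelihood model with group as the only term, and Benjamini-Hochberg adjustment over all tested genes, with a call at 0.05. Each standard error was taken as the size of the log2 change over the root of the F statistic. The test was run on data simulated from the fitted model with 200 genes changed 2-fold, where 8599 genes were called here. That run does not show how the test behaves where the data depart from the model. Libraries held 17184963 to 21721218 counts, and genes with few counts are measured with less precision. Alternatives were DESeq2 1.42.0, limma 3.58.1 on log2(FPKM + 1) and on log2(FPKM + 0.1), median-ratio factors, 2 other filters, a replicate block, a test against a 1.2-fold change, and leaving out each library.

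The members, gene lists and naming rule were chosen with earlier results of these data known. The rule names STRIP2, the members, called list genes with an absolute log2 fold change of at least 0.5 (or the 3 with the smallest adjusted p), tested genes within 1 Mb of AREG and the 3 nearest profiles per ligand, computed on log2(CPM + 0.1). Other list genes and the 2 genes without a symbol near AREG, named to complete small counts, the promoter motifs and the ErbB term were chosen after values were seen. Some results are not reported here.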

Additional observations from a re-analysis of the deposited data

How the results depend on the processing

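Over 14 alternatives, the 6 ligands and ADAM17 kept their direction and their call wherever they were tested. AREG ranged from -1.58 to -1.53 on the log2 scale, EREG from -1.20 to -1.18, TGFA from -1.47 to -1.35, HBEGF from -1.50 to -1.20, BTC from -1.33 to -1.08, EPGN from -1.55 to -0.98 and ADAM17 from -0.69 to -0.55. EPGN did not pass the 3 settings with a filter of 1 FPKM. EGFR (-0.20 to -0.11) lost its call under limma with either pseudocount, the test against a 1.2-fold change and without si-NC replicate 2. ERBB3 (-0.14 to -0.0616) gained one with the filter of 1 FPKM and without si-STRIP2 replicate 2, and ERBB2 (0.031 to 0.082) had none.

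The test against a 1.2-fold change, which by construction calls fewer genes, called 3723 genes, 1780 of them higher. Of the ErbB term it called 17 lower and 4 higher, of adaptors 3 lower and 1 higher, of receptor inhibitors 4 and 1, of trafficking 2 and 0, of ERK genes 5 and 1, and 0 shedding genes higher. Genes called and at least 2-fold lower were 220 with the filter of 1 FPKM, 73 under limma with a pseudocount of 1 and 180 with 0.1, against 456. Adaptors called higher were 3 under limma with either pseudocount and 2 under DESeq2, and trafficking genes 1 and 2. With no filter, 1 other family gene was called lower. MTHFD2L had -0.00394 with median-ratio factors, -0.0153 with the filter of 1 FPKM and -0.0051 under DESeq2. The cause was not tested. On the log2(FPKM + 1) scale, which understates changes of low genes, the following called genes moved by over 1.5 times without losing their call there. TIMP3 moved to -0.88, GAB2 to -0.40, LRIG2 to 0.34, CBLB to 0.24, RASSF6 to -0.60 and CXCL8 to -1.56. CXCL1 moved to -1.02, CXCL2 to -1.16, PDE2A to -0.77, ABCA12 to -0.70, TLCD2 to -0.75 and PTP4A2P1 to -0.61. The call of PTP4A2P1 was lost under DESeq2 (DESeq2 adjusted p = 0.0658). It was also lost without si-NC replicate 1 (edgeR adjusted p = 0.0521) and without si-STRIP2 replicate 2 (edgeR adjusted p = 0.0583).

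Leaving out 1 library gave 7690 to 8494 calls, 7 to 9 members lower, 0 to 1 other family genes lower (1 without si-STRIP2 replicate 1), 0 to 2 shedding genes higher (0 without si-NC replicate 2, 2 without si-STRIP2 replicate 3), 3 to 5 adaptors higher (3 without si-NC replicate 1 or 3 or si-STRIP2 replicate 1 or 2) and 2 to 4 trafficking genes higher (2 without si-STRIP2 replicate 1 or 3). NRG2 ranged from -0.0806 to 0.40 and MTHFD2L from -0.0367 to 0.046. Same-numbered libraries did not deviate together (correlations of -0.0858, -0.0133 and -0.0718). A small shared effect could be missed this way, and the labels do not say whether the numbers pair libraries. With the replicate block 8293 genes were called, with 8 members lower as before, and AP2M1 was among the list genes that lost their call (edgeR adjusted p = 0.0775).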
